A study of Rattus norvegicus with 6 samples.

Results

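The thioredoxin, peroxiredoxin, superoxide dismutase and catalase genes examined here are Txn1, Txnrd1, Txnrd2, Prdx1, Prdx3, Prdx6, Srxn1, Sod1, Sod2 and Cat. These 10 genes, out of 31582 genes or sequences tested, were chosen by name, and their 18 probes were found by matching the RefSeq transcript that the array files give for each probe. The RNA is from kidney cortex of male Crl:CD(SD) (Sprague-Dawley) rats, which were 5 weeks old when purchased. For 4 weeks, 3 animals received the vehicle corn oil (control) and 3 received the brominated diol 2,2-bis(bromomethyl)-1,3-propanediol (BBMP), dosed at 1000 mg/kg/day. Each animal was measured on 1 one-colour microarray, and the comparison asks whether the compound changed the expression of these genes.

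Superoxide dismutases turn superoxide into hydrogen peroxide, Sod1 in the cytosol and Sod2 in the mitochondrial matrix. Hydrogen peroxide is then removed by catalase, mainly in peroxisomes, and by peroxiredoxins. Most of the peroxiredoxins are recharged by thioredoxin and by the NADPH-dependent thioredoxin reductases. The proximal tubule of the cortex is rich in mitochondria and peroxisomes and depends on these enzymes. Txnrd1, Prdx1 and Srxn1 are known targets of NRF2, the transcription factor that turns on antioxidant genes through short promoter elements.

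Values below are log2 signals relative to the array's 75th percentile. A gene or probe is called where limma's adjusted p was under 0.05, and each gene is represented by its brightest probe. The 75th percentile of the processed signal was 942 to 949 on control arrays and 1244 to 1259 on BBMP arrays. Of the probes, 67.2% to 68.6% were well above background on control arrays and 70.5% to 72.7% on BBMP arrays. The 3 control arrays shared slide 1 and its scan, and the 3 BBMP arrays slide 2 and another scan. A difference by treatment and one by slide or scan therefore cannot be told apart. Of all calls, 57.1% were in the higher direction, against 36.2% after normexp background correction, 35.8% after scaling to the median and 46.6% after cyclic loess. All 7 proximal tubule markers (among them Slc34a1, Lrp2 and Cubn) were well above background on all 6 arrays, and none was called. With 3 arrays per group, their number limits the precision.

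Prdx3, the peroxiredoxin of the mitochondrial matrix, fell in the BBMP animals and was the 1 gene of the 10 that was called. No gene of the 10 was called higher by its brightest probe (0 of 10), and none had an unadjusted limma p under 0.05 in that direction. For Txnrd1 this rests on the choice between probes of similar signal. Its brightest, A_44_P554454, had means of 1.30 in control and 1.22 in BBMP animals, and A_44_P456738, called by probe, had 0.98 and 1.43. Over all genes tested, 10.2% were called higher and 7.68% lower, 17.9% in all. A count of 1 in 10 genes is too small to set the members apart from these shares. Of the 10 genes, 4 had a positive and 6 a negative difference, with a median of -0.06 on the log2 scale against 0.05 over all genes. The groups did not overlap in 4 of the 10 genes (Txn1, Prdx3, Sod1 and Cat) and in 9 of the 18 probes, against 43.6% of all genes and 43.4% of all probes tested. Counted by probe, 2 of the 18 were called higher, both of Txnrd1, and 1 lower, that of Prdx3, where 10.3% of all probes were called higher, 7.46% lower and 17.8% in all.

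**Figure D1:**
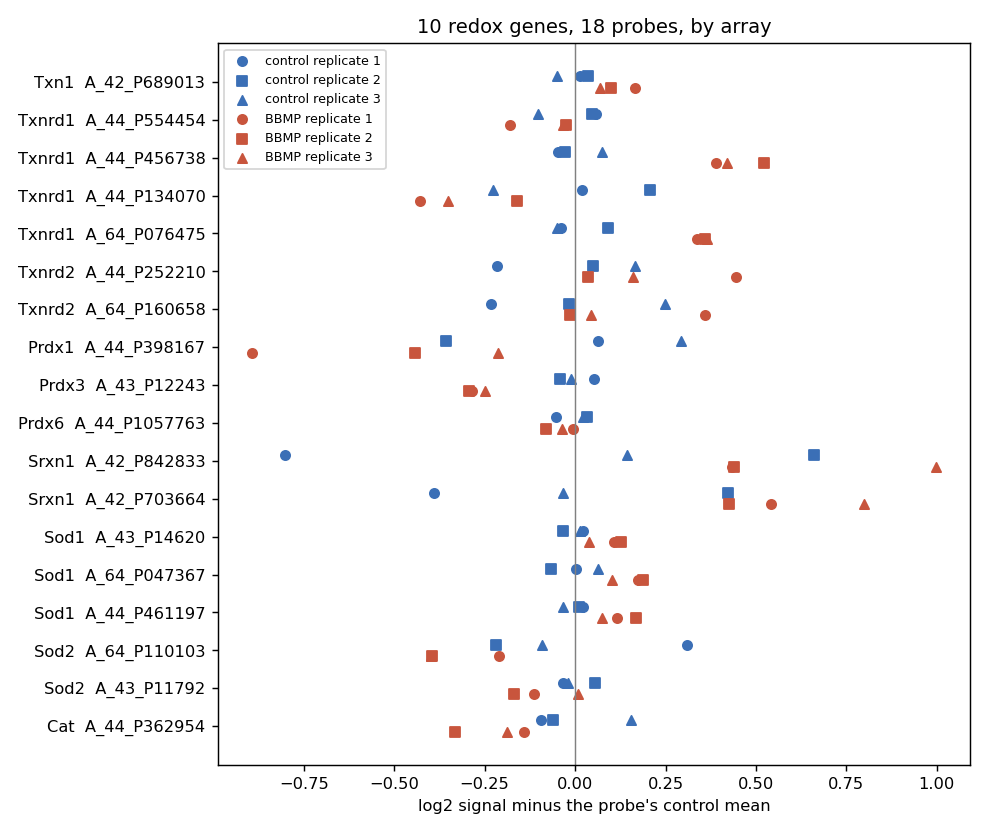
Log2 signal of each of the 18 probes on each of the 6 arrays, drawn as the difference from that probe's control mean; blue symbols are control and red symbols BBMP animals, with 1 shape per replicate number. The BBMP values of Prdx3 lie below all control values, those of A_44_P456738 and A_64_P076475 of Txnrd1 lie above, and the control values of Srxn1 span the widest range.

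Txn1 encodes cytosolic thioredoxin, the small dithiol protein that reduces peroxiredoxins and ribonucleotide reductase. Its probe read 7.08, 7.10 and 7.01 in control replicates 1 to 3 and 7.23, 7.16 and 7.13 in BBMP replicates 1 to 3. Every BBMP value was above every control value, but the nearest pair, 7.10 and 7.13, lay closer together than the SD within a group. The log2 difference was 0.11 ± 0.06 (SE, n = 3 each; 95% interval -0.04 to 0.26; limma adjusted p = 0.24), so Txn1 was not called. With median scaling it was at 0.03.

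Txnrd1 encodes the cytosolic thioredoxin reductase, a selenoprotein. Of its 4 probes, 2 had a positive difference and were called, and 2 had a negative one and were not. The probe A_44_P456738 read 0.94, 0.96 and 1.06 in the control animals and 1.37, 1.51 and 1.40 in the BBMP animals. Its groups were clearly apart, and it was 1.36-fold higher (log2 difference 0.44 ± 0.07, SE; limma adjusted p over all probes = 0.0169). A second probe, A_64_P076475, read -1.37, -1.24 and -1.38 in control and -0.99, -0.97 and -0.97 in BBMP animals. It too was higher in every BBMP animal, by 1.28-fold (log2 difference 0.35 ± 0.06, SE; limma adjusted p over all probes = 0.0223). Without control replicate 2, limma still called A_64_P076475 (adjusted p = 0.048) and not A_44_P456738 (adjusted p = 0.0563). Without control replicate 3 it called both, and without any other 1 animal it called neither (adjusted p from 0.0522 to 0.0726). With normexp background correction, A_64_P076475 was at 0.14 and lost its call.

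The other two Txnrd1 probes had negative differences. The brightest probe, A_44_P554454, read 1.36, 1.35 and 1.20 in control and 1.12, 1.28 and 1.27 in BBMP animals, overlapping groups with a log2 difference of -0.08 ± 0.08 (SE; 95% interval -0.27 to 0.11; limma adjusted p = 0.502). The probe A_44_P134070 read 1.31, 1.50 and 1.07 in control and 0.86, 1.13 and 0.94 in BBMP animals, at -0.31 ± 0.13 (SE; limma adjusted p over all probes = 0.149). These groups overlapped through control replicate 3, which lay on row 1 of its slide like the 3 BBMP arrays, while control replicates 1 and 2 lay on row 2. With slide row as a block the difference of A_44_P134070 was -0.09 and that of A_44_P554454 was 0.02. In the same fit A_44_P456738 was at 0.37 and A_64_P076475 at 0.40, and none of the 4 was called.

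The disagreement between Txnrd1 probes can be read within each array, where scaling between arrays cancels. The log2 ratio of A_44_P456738 over A_44_P134070 was -0.38, -0.54 and -0.01 in control replicates 1 to 3 and 0.51, 0.37 and 0.46 in BBMP replicates 1 to 3. All BBMP arrays lay above all control arrays, with a mean of 0.45 ± 0.07 against -0.31 ± 0.27 (SD, n = 3 each) and a difference of 0.76. These 2 probes were picked after their values were seen, as the one with the most positive and the one with the most negative difference, so the separation is a description with no test. Of the 12 probe pairs within genes, 6 had ratios that did not overlap between groups. They were 5 of the 6 Txnrd1 pairs, with differences between 0.23 and 0.76 in size, and 1 Sod1 pair with a difference of -0.06. The 6 Txnrd1 pairs come from 4 probes, so they are not separate observations. The share of such pairs over the whole array was not computed, so 6 of 12 cannot be called many or few. The groups did not overlap in 43.4% of all single probes tested, an unlike measure, since scaling between arrays does not cancel there. Between both probes that were called, the ratio overlapped between groups, with means of 2.31 ± 0.12 in control and 2.40 ± 0.06 in BBMP animals (SD, n = 3 each). All 4 probes carry the same RefSeq transcript in the files, so which part or form of the Txnrd1 transcript each one reads was not analysed here.

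**Figure D2:**
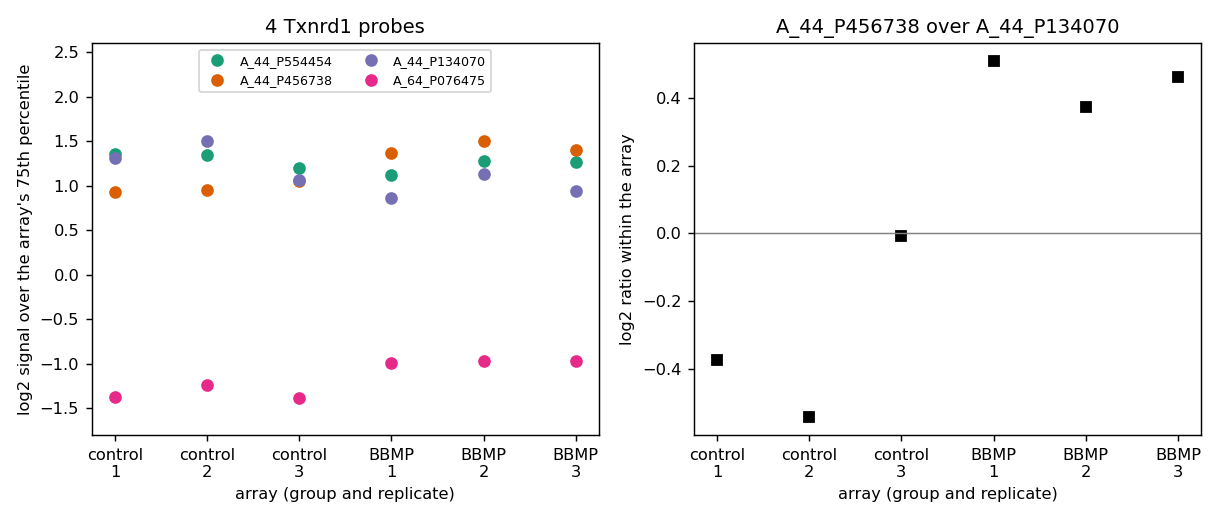
Left, log2 signal of the 4 Txnrd1 probes over the array's 75th percentile on each array; right, the log2 ratio of probe A_44_P456738 over A_44_P134070 within each array. Control arrays have ratios from -0.54 to -0.01 and BBMP arrays from 0.37 to 0.51.

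Txnrd2 encodes the mitochondrial thioredoxin reductase. Its brighter probe read 1.28, 1.55 and 1.66 in control and 1.94, 1.53 and 1.66 in BBMP animals. The groups overlapped, and BBMP replicate 1 was the highest and control replicate 1 the lowest array on both of its probes. The log2 difference was 0.21 ± 0.15 (SE; 95% interval -0.15 to 0.57; limma adjusted p = 0.336) and 0.13 ± 0.16 for the second probe. Without BBMP replicate 1 or control replicate 1 the brighter probe was at 0.10 and 0.11, and with slide row as a block it was at 0.05 and the second probe at -0.12, none of these called.

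Prdx3 takes electrons from the mitochondrial thioredoxin system to reduce hydrogen peroxide in the matrix. Its single probe read 4.48, 4.39 and 4.42 in control replicates 1 to 3 and 4.14, 4.14 and 4.18 in BBMP replicates 1 to 3. The lowest control animal was well above the highest BBMP animal, and the spread within groups was small, with a mean of 4.43 ± 0.05 in control and 4.15 ± 0.02 in BBMP animals (SD, n = 3 each). Prdx3 fell 1.21-fold (log2 difference -0.28 ± 0.06, SE; 95% interval -0.42 to -0.14; limma adjusted p = 0.0292). In bulk cortex RNA, fewer cells of a type and less RNA per cell cannot be told apart. The size changed little without any 1 animal (-0.25 to -0.30), but limma then no longer called it (adjusted p from 0.0592 to 0.0896). Leaving out 1 animal also cut the calls over all genes, in the lower direction from 2425 to between 0 and 1578. Prdx3 also lost its call with no filter on dim probes (log2 difference -0.28, limma adjusted p = 0.0518). With slide row as a block it was at -0.27 (limma adjusted p = 0.171), a fit in which limma called 0 of all genes.

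Prdx1 encodes the main cytosolic peroxiredoxin and had the largest negative log2 difference of the 10 genes, but its animals varied widely. Its probe read 5.49, 5.07 and 5.72 in control and 4.53, 4.98 and 5.21 in BBMP animals. The groups overlapped, since control replicate 2 was below BBMP replicate 3, and the lowest value was BBMP replicate 1. The log2 difference was -0.52 ± 0.23 (SE; 95% interval -1.09 to 0.06; limma adjusted p = 0.171), and it moved to -0.33 without BBMP replicate 1 and to -0.81 with slide row as a block, not called in either. Prdx6, a peroxiredoxin with 1 active cysteine that also acts as a phospholipase, read 3.77, 3.85 and 3.84 in control and 3.81, 3.74 and 3.78 in BBMP animals. Its groups overlapped within a narrow range, and the interval of the difference, -0.18 to 0.10, holds changes of little size in either direction (limma adjusted p = 0.646).

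Srxn1 encodes sulfiredoxin, which repairs peroxiredoxins that peroxide has overoxidised, and had the largest positive log2 difference of the 10. Its brighter probe read 0.81, 2.28 and 1.76 in control and 2.05, 2.06 and 2.62 in BBMP animals. Control replicate 1 was far below every other animal, while control replicate 2 was above 2 of the 3 BBMP animals. The second probe, A_42_P703664, gave the same lowest and highest animals, at -4.49, -3.68 and -4.13 in control and -3.56, -3.67 and -3.30 in BBMP animals. The log2 differences were 0.62 ± 0.39 (SE; 95% interval -0.34 to 1.59; limma adjusted p = 0.297) and 0.59 ± 0.22 (SE; limma adjusted p over all probes = 0.115), so neither probe was called. On the second probe the groups did not overlap, with -3.68 and -3.67 as the nearest pair. Without control replicate 1 the difference of the brighter probe was 0.22, without control replicate 2 it was 0.95, and with normexp that of the dimmer probe was 0.03.

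Sod1 encodes the copper-zinc superoxide dismutase, and its 3 probes gave near-equal small positive differences. The brightest read 7.82, 7.77 and 7.81 in control and 7.91, 7.93 and 7.84 in BBMP animals. On all 3 probes every BBMP animal was above every control animal, with 7.82 and 7.84 as the nearest pair on the brightest one. The log2 difference was 0.09 ± 0.06 (SE; 95% interval -0.05 to 0.23; limma adjusted p = 0.299), with 0.15 ± 0.06 and 0.12 ± 0.06 for the other probes, none called. The size depended on the scaling: the brightest probe was at 0.02 with median scaling, 0.03 with quantile normalization and 0.17 with normexp, not called in any. The probe A_64_P047367 was at 0.08 and 0.09 with median scaling and quantile normalization, and at 0.26 with normexp, where limma called it higher (adjusted p = 0.0177). No probe of the 10 genes was saturated on any array.

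Sod2 encodes the manganese superoxide dismutase of mitochondria, and its 2 probes differed in size. The brighter read 3.46, 2.93 and 3.06 in control and 2.94, 2.75 and 2.75 in BBMP animals. Control replicate 1 stood above the other 5 animals, and control replicate 2 lay within the BBMP range. The log2 difference was -0.33 ± 0.15 (SE; 95% interval -0.70 to 0.04; limma adjusted p = 0.168), and -0.18 without control replicate 1. The second probe read 1.57, 1.65 and 1.58 in control and 1.49, 1.43 and 1.61 in BBMP animals, with a difference of -0.09 ± 0.07 (SE) that was not called. Control replicate 1 did not stand out on this probe, where the groups overlapped.

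Cat encodes catalase, which breaks down hydrogen peroxide without a reductant. Its probe read 3.13, 3.16 and 3.38 in control and 3.08, 2.89 and 3.04 in BBMP animals. All BBMP animals were below all control animals, but the nearest pair differed by less than the spread within either group. The log2 difference was -0.22 ± 0.10 (SE; 95% interval -0.45 to 0.01; limma adjusted p = 0.156), so Cat was not called. It was -0.14 without control replicate 3, the highest animal, and -0.38 with slide row as a block, not called in either.

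**Figure D3:**
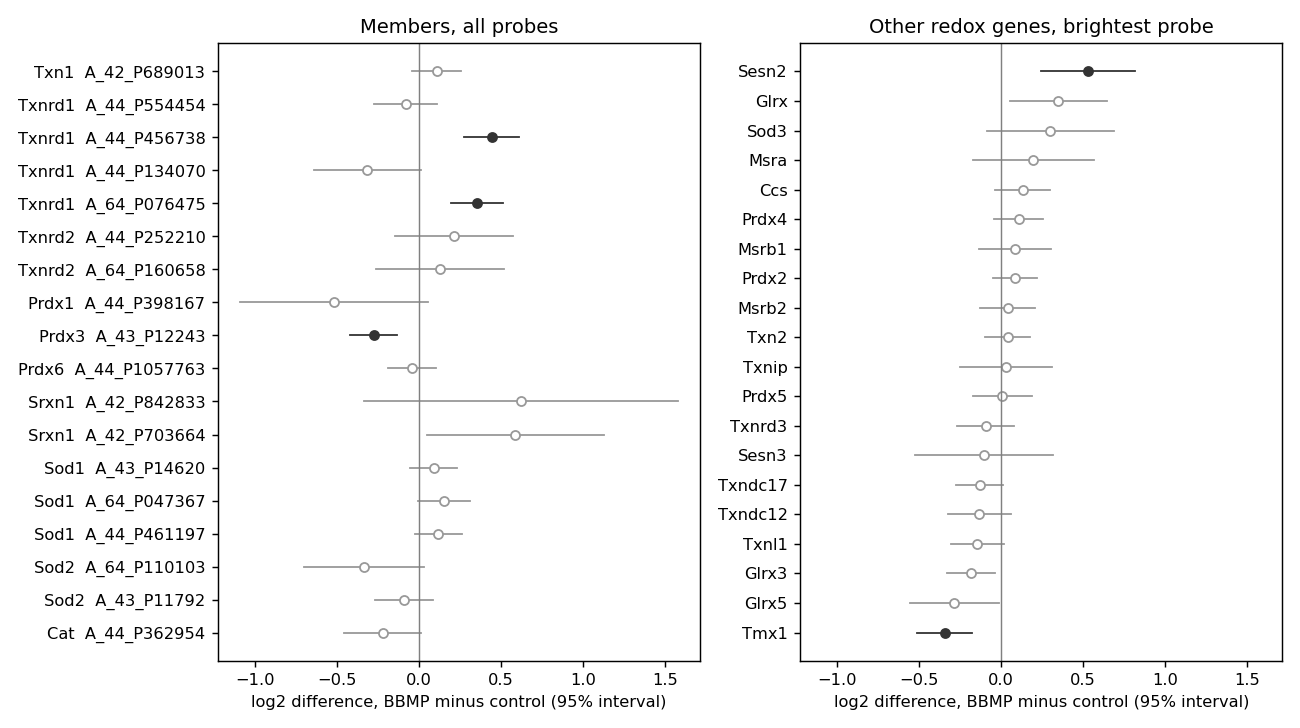
Log2 difference between BBMP and control with its 95% interval for the 18 probes of the 10 genes (left) and for the brightest probe of 20 other redox genes (right); filled dark symbols have an adjusted p under 0.05. On the left, 2 Txnrd1 probes are higher and Prdx3 lower, and on the right Sesn2 is higher and Tmx1 lower.

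By compartment, the mitochondrial members were at -0.28 for Prdx3, -0.33 for the brighter probe of Sod2 and 0.21 for that of Txnrd2, of which Prdx3 alone was called. The genes also differed in how far animals of the same group lay apart. The SD within groups, pooled over both, was 0.04 for Prdx3, 0.04 for Prdx6, 0.05 for Txn1 and 0.04 for the brightest probe of Sod1, against a median of 0.13 over all probes tested. Of all probes, 4.48% had a smaller spread than that of Prdx3. All probes tested include dim ones, and spread was not compared among probes of like signal. At the other end, the brighter probe of Srxn1 had an SD of 0.57, larger than 96.2% of all probes, and Prdx1 one of 0.34, larger than 88.1%. The highest control animal had 2.76 times the Srxn1 signal of the lowest, and 1.57 times for Prdx1, against 1.07 times for Prdx3.

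**Figure D4:**
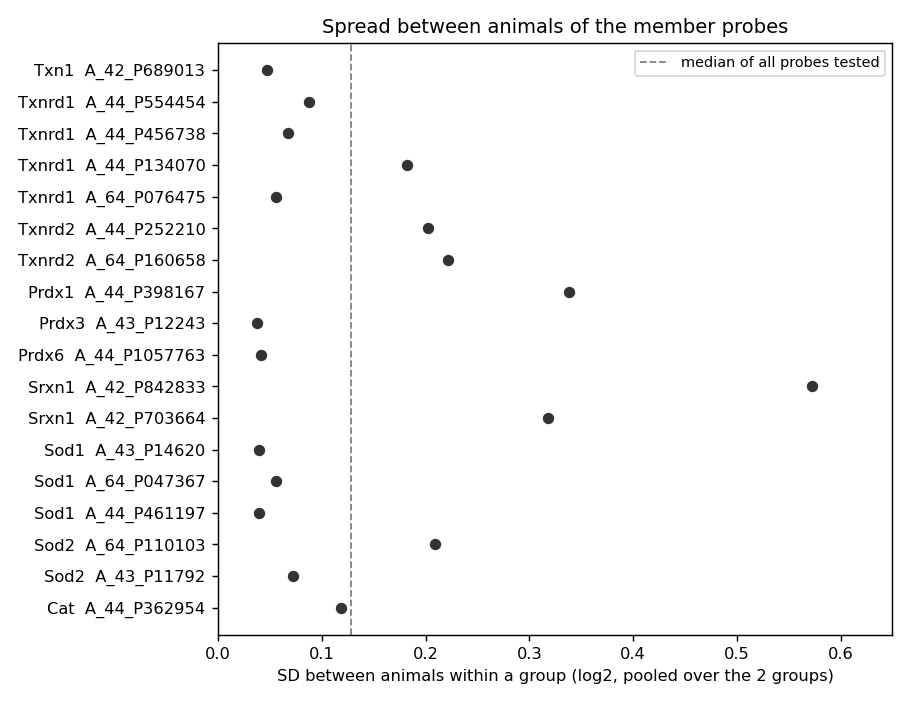
SD between animals of the same group for each of the 18 probes, in log2 units and pooled over both groups, with the median of all probes tested as a dashed line at 0.13. The probes of Srxn1 and Prdx1 lie between 0.32 and 0.57, and those of Prdx3, Prdx6, Txn1 and Sod1 at or below 0.06.

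The upstream sequences of Txnrd1, Prdx1 and Srxn1, named above as NRF2 targets, are shown with that of Prdx3, the gene that was called. These need not be all the NRF2 targets among the members, and the windows of the other members, among them Txn1 with no match, are not shown. They are the 250 bases before each start in RefSeq's GRCr8 annotation, 5′ to 3′ along the gene, and RefSeq gives 2 starts for Txnrd1. Capitals mark matches on either strand to TGACNNNGC, the core of the antioxidant response element, or to TGACTCA, the AP-1 element, which can overlap it.

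Txnrd1 downstream start, chr7:22755905-22756154, minus strand: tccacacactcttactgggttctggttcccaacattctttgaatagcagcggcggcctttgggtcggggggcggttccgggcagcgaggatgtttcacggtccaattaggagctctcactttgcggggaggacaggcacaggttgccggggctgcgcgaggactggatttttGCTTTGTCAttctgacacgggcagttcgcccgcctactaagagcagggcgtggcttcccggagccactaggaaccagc
Txnrd1 upstream start, chr7:22764852-22765101, minus strand: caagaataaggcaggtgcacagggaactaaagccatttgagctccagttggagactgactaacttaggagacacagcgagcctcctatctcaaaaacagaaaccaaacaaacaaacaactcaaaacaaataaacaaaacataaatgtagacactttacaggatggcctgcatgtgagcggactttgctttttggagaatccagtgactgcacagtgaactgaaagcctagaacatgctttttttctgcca
Prdx1, chr5:135383656-135383905, plus strand: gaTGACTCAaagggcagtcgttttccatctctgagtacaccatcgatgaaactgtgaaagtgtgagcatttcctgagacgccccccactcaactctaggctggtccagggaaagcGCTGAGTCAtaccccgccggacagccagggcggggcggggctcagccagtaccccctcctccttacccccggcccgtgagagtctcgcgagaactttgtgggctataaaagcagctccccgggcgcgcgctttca
Srxn1, chr3:161064562-161064811, plus strand: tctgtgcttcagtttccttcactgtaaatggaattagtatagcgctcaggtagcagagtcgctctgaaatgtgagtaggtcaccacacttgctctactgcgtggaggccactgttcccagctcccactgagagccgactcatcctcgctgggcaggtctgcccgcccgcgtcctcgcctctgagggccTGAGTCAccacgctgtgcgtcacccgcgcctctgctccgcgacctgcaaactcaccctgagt
Prdx3, chr1:270000112-270000361, minus strand: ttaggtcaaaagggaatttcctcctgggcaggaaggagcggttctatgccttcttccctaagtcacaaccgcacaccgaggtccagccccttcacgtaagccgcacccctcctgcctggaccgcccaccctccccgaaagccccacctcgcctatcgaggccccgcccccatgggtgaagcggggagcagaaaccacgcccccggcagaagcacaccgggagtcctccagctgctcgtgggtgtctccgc

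The table held an entry for 9 of the 10 genes, with 10 starts in all. TGACNNNGC was found at 3 of these starts, those of Prdx1, Sod2 and the downstream start of Txnrd1, and lies before 10.1% of 33469 starts in the genome. TGACTCA was found before Prdx1 and Srxn1, at 2 of the 10 starts, against 4.05% of all. In Prdx1 the match GCTGAGTCA begins 135 bases before the start and also holds an AP-1 match, while in Txnrd1 the match GCTTTGTCA begins 78 bases before it. Both elements were absent from the window of Prdx3. These are matches of letters, and binding was not measured. Of the genes with a match, Prdx1 had a negative difference on its probe, Srxn1 a positive one and Sod2 a negative one, the 4 probes of Txnrd1 were split, and none of these 4 genes was called by its brightest probe.

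Other genes of the same systems were taken from a list of 25, of which 20 were tested. Limma called 1 higher and 1 lower, 2 of 20 against 17.9% of all genes in either direction, and the median difference was 0.03 on the log2 scale against 0.05 over all genes. The one that rose was Sesn2, a stress-induced sestrin that is also a p53 target, at -0.24, -0.05 and 0.08 in control and 0.63, 0.38 and 0.37 in BBMP animals. The groups did not overlap, and it was 1.45-fold higher (log2 difference 0.53 ± 0.12, SE; limma adjusted p = 0.033). The one that fell was Tmx1, a thioredoxin-like enzyme of the endoplasmic reticulum membrane, at -0.75, -0.69 and -0.82 in control and -1.18, -1.08 and -1.04 in BBMP animals. Its groups were apart on both of its probes, and it fell 1.27-fold (log2 difference -0.35 ± 0.07, SE; limma adjusted p = 0.0264), with the second probe at -0.34 and also called (adjusted p over all probes = 0.0339). Both calls were lost without control replicate 1 or 2 or any 1 BBMP replicate.

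Of the close relatives of the members, Txn2, mitochondrial thioredoxin, was at 0.04 ± 0.06 (SE), Prdx2, a cytosolic peroxiredoxin, at 0.08 ± 0.05 and Prdx5, a peroxiredoxin of several compartments, at 0.01 ± 0.07 on the log2 scale. Sod3, the extracellular superoxide dismutase, was at 0.30 ± 0.16 (SE), with a 95% interval of -0.08 to 0.69. Limma called none of these 4 (adjusted p from 0.221 to 0.946).

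Red blood cells are rich in Sod1, Cat, Prdx2 and Txn1, so erythroid markers are given beside them. Of 7 markers listed, 6 were tested and 0 were called by their brightest probe, and their summed linear signal was 507 to 605 times the array's 75th percentile in control and 564 to 643 times in BBMP animals. Of these 6 brightest probes 5 had a positive log2 difference, that of Alas2, the erythroid enzyme of haem synthesis, at 0.42 ± 0.12 (SE) with groups that did not overlap. Over all probes tested, 10.3% were called higher and 7.46% lower. Counting all 10 erythroid probes tested, limma called 3 higher and 0 lower (adjusted over all probes). They were dimmer probes of the haemoglobin genes Hba-a1 and Hbb, at 0.53 ± 0.13 and 0.65 ± 0.14, and of the red cell anion exchanger Slc4a1, which collecting duct cells also express, at 0.64 ± 0.15 on the log2 scale (SE; limma adjusted p = 0.0414, 0.0327 and 0.0423). The part of blood in the Sod1 and Txn1 values was not tested. Of 8 leukocyte markers 7 were tested, 4 had a positive difference and 1, Csf1r, was called higher (log2 difference 0.42 ± 0.08, SE; limma adjusted p = 0.0273). Their summed signals were 87.4 to 98.6 in control and 63.3 to 99.0 in BBMP animals. Lyz2 made up most of this sum, with log2 means of 6.45 in control and 6.30 in BBMP animals, against 0.98 and 0.96 for Cd68, the next brightest. Of 4 collecting duct markers 1 was called lower and of 5 podocyte markers 2 were called higher. Those 2 were the only podocyte markers with a positive difference on the brightest probe. The summed podocyte signal of these probes was 31.5 to 37.4 in control and 30.0 to 34.9 in BBMP animals. Counting all 10 podocyte probes tested, limma called 3 higher and 0 lower. The third was a dimmer probe of Wt1 at 0.63 ± 0.16 (SE; limma adjusted p over all probes = 0.044), while the brightest probe of Wt1 was at -0.06. None of 2 thick ascending limb and 3 adipocyte markers tested was called, and 1 of 3 adrenal cortex markers tested was called higher. The counts by gene stand beside 10.2% of all genes called higher and 7.68% called lower.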

How the data were processed

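Cortex RNA of 6 rats, 3 per group, was labelled with Cy3 and hybridised to 1 array each, per the labels' protocols. Per the file headers, the deposited files come from Agilent Feature Extraction 10.7.1.1 and hold intensity values on a linear scale (a processed signal, plus each spot's raw median and local background) and flags scored 0 or 1. The submitters' processing notes name version 10.7. The authors' deposited series table holds 1 ratio per probe and array. Each of its columns equals the processed signal over the 75th percentile of another array of the same group, so replicate numbers are uncertain while groups are not affected. The scanner files were used.

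Of 61657 non-control probes, 84 ERCC spike-in probes and 10 with an outlier flag were left out. Values are log2 of the processed signal, from which the 75th percentile of each array was subtracted. A probe was tested if well above background on all 3 arrays of a group (42657 probes), was named by matching RefSeq accessions to the GRCr8 table, used for names, and each gene was represented by its brightest probe (31582 genes or sequences). BBMP was set against control by a two-sided test without covariates in limma 3.58.1 (lmFit, then eBayes; R 4.3.3), with Benjamini-Hochberg adjustment over all genes or all probes, and the fit was tested on simulated data. The design text calls the samples biological replicates. All 10 members are named, as are the other redox genes that were called (at most 6) and Txn2, Prdx2, Prdx5 and Sod3; the marker genes named, and Txndc17, Glrx5 and Glrx3, were chosen after their values were seen. The members and lists were chosen with earlier results of these data known. Alternatives changed the background correction, normalization, probe filter and choice, block, moderation, weights and samples; those added later are the blocks, moderation and left-out samples for single probes. The planned normexp correction used the median signal. The summed marker signal is linear, over the array's 75th percentile.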

Additional observations from a re-analysis of the deposited data

How the results depend on the processing

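None of 22 alternatives called a member higher (0 to 2 higher at an unadjusted p under 0.05), and the log2 differences of Txn1, Txnrd2, Prdx1, Prdx3, Srxn1, Sod1, Sod2 and Cat kept their sign in each. The difference of Prdx6 was 0.011 with normexp, and that of Txnrd1 was 0.10 with the mean of its probes and 0.023 with slide row as a block or row 1 alone; none of these was called, and the mean takes in probes that moved apart. Prdx3 kept its call in 12 alternatives. The members called lower (1) numbered 0 with no filter on dim probes, replicate block, slide row as block and row 1 alone, and 0 to 0 without any 1 replicate, with 1 to 3 members lower at an unadjusted p under 0.05. Sesn2, the other redox gene called higher, was among 2 called with normexp; the count was 0 with no filter on dim probes, no empirical Bayes moderation, replicate block, slide row as block and row 1 alone, and 0 to 1 without 1 replicate. Other redox genes called lower (1) numbered 3 with normexp (Tmx1, Txndc17 and Glrx5), 2 (Tmx1 and Glrx3) with median scaling and with trend and robust moderation, 0 with replicate block, slide row as block and row 1 alone, and 0 to 1 without 1 replicate. Member probes called higher (2) numbered 0 with replicate block and slide row as block and 0 to 2 without 1 replicate; those called lower (1) numbered 2 with normexp, where A_44_P134070 of Txnrd1 joined Prdx3, 0 with replicate block and slide row as block, and 0 to 0 without 1 replicate. Limma called 0 of all genes with the replicate block or slide row as a block, and 3 without BBMP replicate 2, against 5653. Samples with the same replicate number did not deviate together (correlations of -0.12, -0.08 and -0.07 across genes, against -0.05 to 0.12 for unlike numbers). The numbers thus gave no sign of pairing, but with 3 animals per group and uncertain replicate numbers this cannot settle whether animals were paired. The median log2 difference of all genes was 0.05, -0.03 with median scaling and -0.06 with normexp, which adds an offset of 50 to every signal. In row 1 alone, the single control animal is assumed to vary like the BBMP animals. The cause of the changes between alternatives was not tested.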
